A study of Schmidtea mediterranea with 18 samples.

Results

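The RNA of *hippo (RNAi)* planarians was compared with that of *gfp (RNAi)* controls after 4 weeks of inhibition, the last of the time points sequenced. These 2 groups hold 6 of the 18 libraries of the series, 3 in each, and were taken by their labels for treatment and week. The libraries are 268O, 264O and 269O for *hippo (RNAi)* and 261O, 262O and 263O for *gfp (RNAi)*, and values for single libraries are given in that order. The other 12 libraries come from the same 2 treatments after 1 and 3 weeks, with controls of their own at each week, so no library is shared between weeks.

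All animals were whole planarians of the species *Schmidtea mediterranea* from the asexual BCN-10 clonal line, so both groups share one genetic background, and they were kept without food. The *hippo (RNAi)* animals were injected with double-stranded RNA for *hippo*, which lowers the messenger RNA of that gene without removing it. The *gfp (RNAi)* animals were injected in the same way with double-stranded RNA for *gfp*, a jellyfish gene that planarians do not have. Injections were given weekly, and whether they went on in the last week before these libraries were made is not given in the sources used here. Each library was made from poly(A) RNA of a pool of 5 animals, so the libraries measure whole bodies, and p-values cover the spread between pools. The age of the animals is not given.

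The Hippo pathway is a chain of kinases that limits tissue growth in flies and mammals. The kinase Hippo (MST1 and MST2 in mammals) activates the kinase Warts (LATS1 and LATS2), which phosphorylates the coactivator Yorkie (YAP and TAZ) and keeps it out of the nucleus. Parts of the pathway also act in mitosis, at centrosomes and in the control of cell polarity. Planarians renew all of their tissues from a pool of dividing stem cells, the neoblasts, and shrink when they are starved, so that division, differentiation and cell death have to be matched throughout life.

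The deposited values are TPM, which give the abundance of each transcript per unit of its length, as a share of a fixed total for the library. They do not keep the sequencing depth, so counting error cannot be stated. Of the 41745 transcripts of the assembly, 28735 passed a minimum of 1 TPM in the mean of the 18 libraries and were tested with limma on the log2(TPM + 1) scale, on which changes of scarce transcripts come out too small. A transcript was called when its p, adjusted over all transcripts tested, was below 0.05. The files pair no gene names with the transcripts, and the study's tables name 20 of the assembly codes. The transcripts of *hippo* and *yorkie* and those of cell type markers were therefore not analysed here, and neither the inhibition of *hippo* nor the makeup of the animals was checked in these libraries.

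At the level of whole libraries the treatments separated. In a principal component analysis of the 6 libraries, the first component held 37.6% of the variance. The *hippo (RNAi)* libraries lay at 38.2, 23.2 and 23.7 on it, against -29.7, -24.7 and -30.7 for the *gfp (RNAi)* libraries, so the groups did not overlap. The second component held 18.4% and set *hippo (RNAi)* libraries apart from each other, with 268O at -33.4 and 269O at 33.1. Spearman's rho across transcripts was 0.948 to 0.958 among *hippo (RNAi)* libraries, 0.954 to 0.958 among *gfp (RNAi)* libraries and 0.940 to 0.956 between the groups. Library 264O adjoins the controls in its number, whereas 268O and 269O lie apart from them. What the numbers stand for is not given and their part in the results was not tested. The median difference from the controls in the transcripts called lower was -0.31 in 268O, -0.28 in 264O and -0.29 in 269O. These transcripts were selected on the same libraries, so the values describe the libraries and do not test their likeness.

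After 4 weeks, 6195 transcripts differed between *hippo (RNAi)* animals and controls, which is 21.6% of those tested. Of these, 3742 (13%) were higher in *hippo (RNAi)* animals and 2453 (8.54%) were lower. At an unadjusted p below 0.05 the limma test gave 9022 transcripts. With a median-ratio scaling of the libraries the share of higher transcripts among the calls was 55.9%, against 60.4% with TPM as deposited. A fit without *hippo (RNAi)* libraries 266 to 269 has 264O alone in the 4-week group. It assumes that 264O varies like the other libraries. In 264O, all 3742 higher transcripts lay above the controls and all 2453 lower ones below them, with median log2 differences of 0.32 and -0.28. The same library and controls had made the calls, so this shared direction was fixed by the selection and tests nothing.

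Most of these differences were small and even between libraries. The median log2 fold change was 0.32 among the higher transcripts and -0.30 among the lower ones, beside a median of 0.00 over all transcripts tested, and the median standard error was 0.11. Among the higher transcripts 795 changed by at least 1.5-fold, 227 by at least 2-fold and 32 by at least 4-fold. Among the lower transcripts the corresponding counts were 330, 60 and 3, so large changes were mostly rises. The libraries of the 2 groups did not overlap in 6108 of the called transcripts, beside 10551 (36.7%) of all transcripts tested.

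The direction of the changes depended on how abundant a transcript was. Among transcripts with a mean of 10 to 30 TPM, 22.6% were above the controls and 10.7% below them, and among those of 30 to 100 TPM 35.7% were higher and 18.4% lower. In the class of 100 to 1000 TPM the shares were 30.6% and 37.4%. Of the 146 most abundant transcripts, with 1000 TPM or more, 15 (10.3%) were higher and 89 (61.0%) were lower, with a median log2 fold change of -0.11 over the class. The excess of lower calls in this class was also present with median-ratio scaling (14 higher and 93 lower). Without libraries 266 to 269 the median log2 fold change over the class was -0.13. That fit reuses the controls and a *hippo (RNAi)* library of the main fit, so it is not a separate check. Below 3 TPM, 4.65% of transcripts were called, and the median standard error was 0.20 there against 0.04 at 1000 TPM or more, so the classes differ in what could be detected. In RNA of whole animals, fewer cells of a type and less RNA per cell cannot be told apart. A rise of some transcripts also takes TPM from all others.

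**Figure D1:**
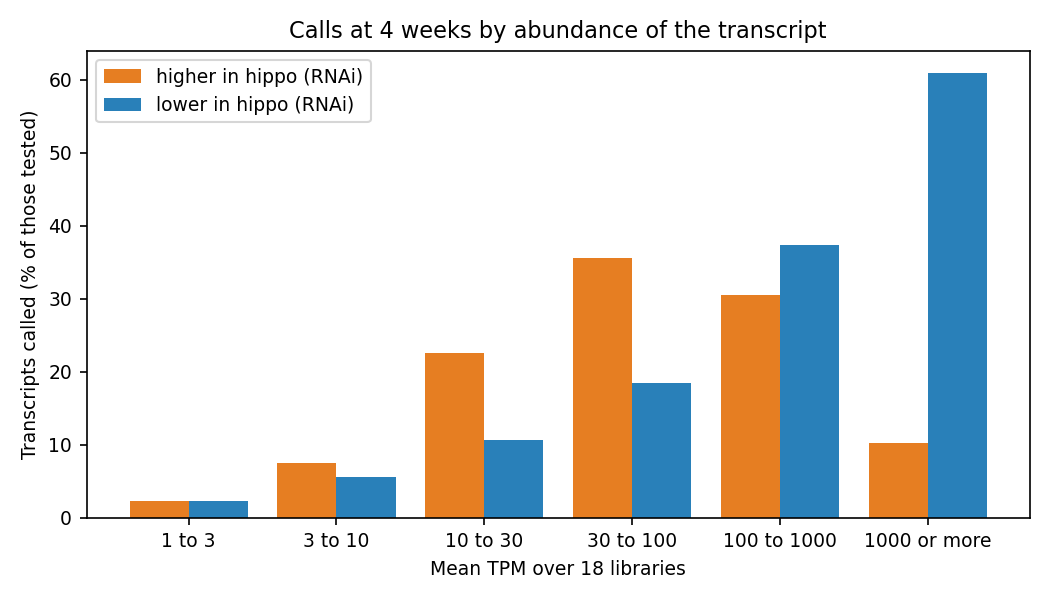
Share of the tested transcripts that were called higher (orange) or lower (blue) in *hippo (RNAi)* animals at 4 weeks, in percent, by class of mean TPM over the 18 libraries. Higher calls exceed lower calls from 10 to 100 TPM, and at 1000 TPM or more 61.0% are lower and 10.3% higher.

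A large part of the messenger RNA was in transcripts whose share changed. The transcripts called higher held 30.0%, 29.8% and 29.3% of all TPM in the *hippo (RNAi)* libraries, against 21.6%, 21.9% and 21.4% in the *gfp (RNAi)* libraries. Those called lower held 31.8%, 32.2% and 32.8% in *hippo (RNAi)* libraries and 40.0%, 39.9% and 40.3% in *gfp (RNAi)* libraries. These transcripts were selected on the same libraries, so the shares describe the size of the shift and are not a test of it.

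**Figure D2:**
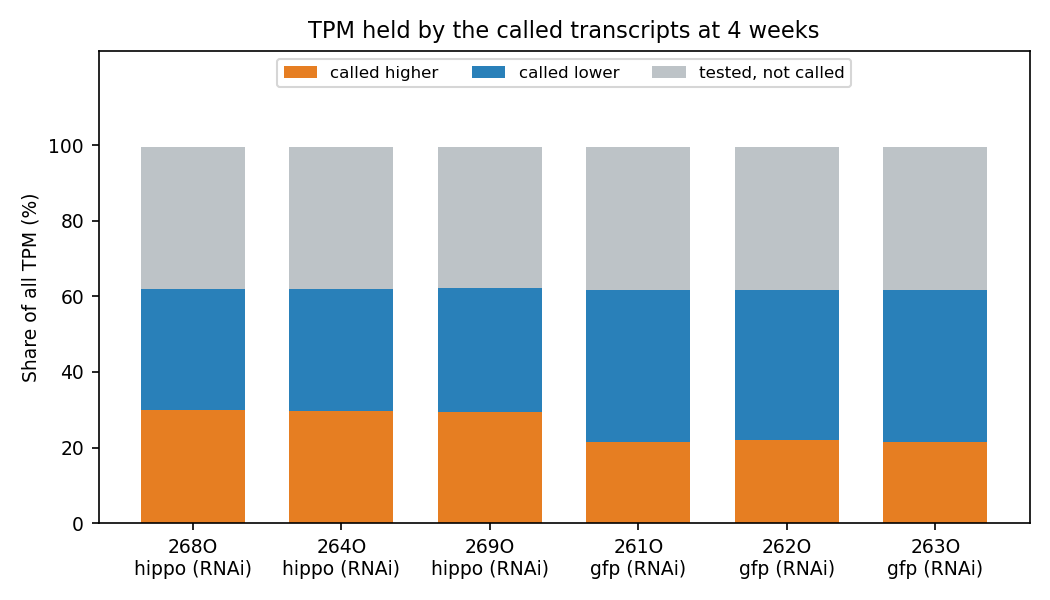
Share of all TPM (percent) held in each of the 6 libraries by transcripts called higher (orange), called lower (blue) and tested but not called (grey). The remainder up to 100% is in transcripts below the minimum of 1 TPM. The orange share is 29.3% to 30.0% in *hippo (RNAi)* libraries and 21.4% to 21.9% in *gfp (RNAi)* libraries.

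Few transcripts made up much of this shift. The 10 transcripts with the largest gain accounted for 35.4% of the summed gain in mean TPM of the higher transcripts, and 1 of them for 11.4%. This transcript, chosen after its values were seen and without a name in the sources used here, had 10822, 11402 and 11153 TPM in *hippo (RNAi)* libraries, against 1844, 2125 and 1838 TPM in *gfp (RNAi)* libraries. Its log2 fold change was 2.53 (SE 0.14, adjusted p = 8.29e-09). The next had 10950, 11480 and 10447 TPM in *hippo (RNAi)* libraries and 5216, 5592 and 5140 TPM in *gfp (RNAi)* libraries, a log2 fold change of 1.04 (SE 0.06, adjusted p = 8.29e-09). In neither did the groups overlap, and both belong to the 146 transcripts of 1000 TPM or more, where rises were few. Of the summed loss, 22.3% was in the 10 largest losses and 5.01% in the largest, and it took 55 transcripts to make up 50% of the gain and 58 to make up 50% of the loss. The transcript with the largest loss averaged 18806 ± 1024 TPM in *hippo (RNAi)* pools and 22708 ± 588 TPM in control pools (SD, n = 3 each), and its log2 fold change was -0.27 (SE 0.08, adjusted p = 0.0301).

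By size of change, the largest rises were in 2 transcripts without a gene name in the sources used here. Transcript dd_Smed_v6_615_0_1 had 376, 283 and 333 TPM in *hippo (RNAi)* libraries, against 20.7, 25.0 and 22.5 TPM in *gfp (RNAi)* libraries, a log2 fold change of 3.80 (SE 0.12, adjusted p = 8.19e-11). Transcript dd_Smed_v6_1188_0_1 had 215, 216 and 200 TPM in *hippo (RNAi)* libraries, against 19.5, 16.9 and 19.9 TPM in *gfp (RNAi)* libraries, a log2 fold change of 3.42 (SE 0.16, adjusted p = 2.52e-09). Every *hippo (RNAi)* library was far above every control in both, and each is the sole transcript of its assembly code.

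The largest falls by the same measure were of another kind, since both were in 1 of several transcripts that share an assembly code and the controls of 4 weeks were the group that stood apart. Transcript dd_Smed_v6_1665_0_5 was listed at 0 in the 3 *hippo (RNAi)* libraries, against 12.5, 7.78 and 9.92 TPM in *gfp (RNAi)* libraries. At 3 weeks its mean was 0 TPM in *hippo (RNAi)* pools and in control pools, and at 1 week it was 1.69 TPM and 0 TPM, so it passed the minimum of 1 TPM only through the 4-week controls and had to differ there, and no test is given. Another of the 6 transcripts of this code had 9.30, 8.69 and 9.40 TPM in *hippo (RNAi)* libraries and 0, 3.02 and 0 TPM in *gfp (RNAi)* libraries. Here too the 4-week controls stood apart, since the mean was 7.58 TPM in *hippo (RNAi)* pools and 10.8 TPM in control pools at 1 week, and 8.50 TPM and 10.3 TPM at 3 weeks. Summed over the code, the level was 76.6 ± 2.09 TPM in *hippo (RNAi)* pools and 78.3 ± 2.28 TPM in control pools at 4 weeks (SD, n = 3 each), a log2 fold change of -0.03 that did not pass the test.

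Transcript dd_Smed_v6_1062_0_5 had 0, 0 and 2.27 TPM in *hippo (RNAi)* libraries and 6.36, 17.6 and 36.8 TPM in *gfp (RNAi)* libraries, with a log2 fold change of -3.54 (SE 0.77, adjusted p = 0.00340). The controls were uneven here. At 1 week the mean was 1.38 TPM in *hippo (RNAi)* pools and 0 TPM in control pools, and at 3 weeks it was 3.04 TPM and 0.875 TPM, so the 4-week controls stood apart again. The sum over the 7 transcripts of the code was 281 ± 8.08 TPM in *hippo (RNAi)* pools and 355 ± 1.14 TPM in control pools at 4 weeks (SD, n = 3 each), a log2 fold change of -0.34 (adjusted p = 1.44e-04). Only this fit used sums. The highest adjusted p over the 15 alternatives, 0.0282, belongs to dd_Smed_v6_1062_0_5 and not to the sum. Another transcript of this code had 139, 113 and 121 TPM in *hippo (RNAi)* libraries and 206, 211 and 215 TPM in *gfp (RNAi)* libraries, a log2 fold change of -0.76 (adjusted p = 8.42e-05). A further one was higher, at 1.96 (adjusted p = 0.0486). The fall of the sum is therefore no separate evidence for that of dd_Smed_v6_1062_0_5. The authors' tool divides reads between transcripts that share sequence, and its part in these values was not tested.

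Among all tested codes, 3504 had at least 2 tested transcripts. In 295 of them at least 2 transcripts were called, in 243 with one direction and in 52 with opposite directions. Transcripts that were the sole one tested of their code were called in 25.5% of cases, against 14.2% for transcripts of codes with several. These sets were not matched for abundance, with which the share called differed. Presence or absence was rare, since 4 transcripts were above 0 in all *hippo (RNAi)* libraries and at 0 in all controls (2 of them called), and 3 showed the reverse (2 of them called).

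The 20 named genes were chosen by the study on these same samples for their part in the cell cycle or downstream of Hippo, so their number of changes is not independent evidence. At 4 weeks, 10 of the 20 were higher in *hippo (RNAi)* animals, 4 were lower and 6 did not pass the test, a share called of 70%, beside 21.6% of all transcripts. The groups did not overlap in 18 of them, beside 36.7% of all transcripts tested. The median log2 fold change was 0.09, and 6 genes changed by at least 1.5-fold. Over all transcripts the share called ran from 4.65% below 3 TPM to 71.2% at 1000 TPM or more. The counts by role were not matched for abundance and are not results about the roles. Where a code holds more than 1 transcript, as in 6 of the 20, the one with the highest mean TPM comes first.

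**Figure D3:**
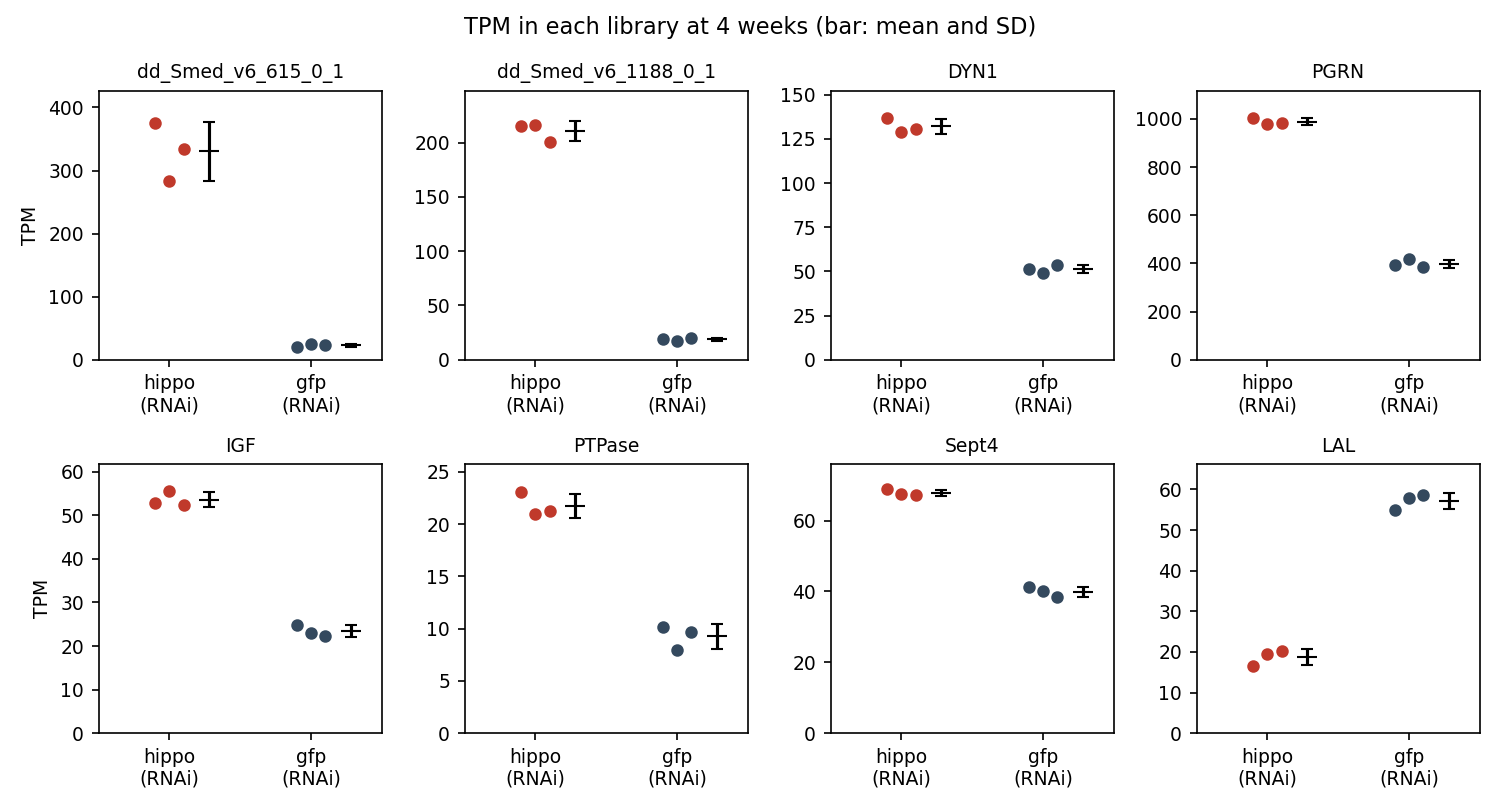
TPM in each library at 4 weeks for the 2 transcripts with the largest rise and for the 6 named genes that changed by at least 1.5-fold, with *hippo (RNAi)* libraries (red) left of *gfp (RNAi)* libraries (dark blue) and the mean and SD as a black bar beside each. In every panel the groups are apart, and *LAL* alone is lower in *hippo (RNAi)* libraries.

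Genes of growth and of the G1 phase showed the widest range, with 4 of 7 higher, 3 lower and none without a call, from -1.56 to 1.31 on the log2 scale. Of all transcripts tested, 13% were higher and 8.54% lower. Progranulin (*PGRN*), a secreted growth factor built of granulin repeats, had 1004, 979 and 984 TPM in *hippo (RNAi)* libraries, against 395, 417 and 384 TPM in *gfp (RNAi)* libraries. The groups did not overlap, and its log2 fold change was 1.31 (SE 0.08, adjusted p = 1.76e-08), the 103rd largest of the 3742 rises. The insulin-like growth factor (*IGF*), a ligand of the insulin pathway that promotes growth, had 52.7, 55.5 and 52.4 TPM in *hippo (RNAi)* libraries, against 24.9, 22.9 and 22.4 TPM in *gfp (RNAi)* libraries. Its lowest *hippo (RNAi)* library was thus above its highest control, and the log2 fold change was 1.16 (SE 0.06, adjusted p = 3.16e-09).

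A protein tyrosine phosphatase (*PTPase*), of the enzymes that remove phosphate from tyrosines, had 23.1, 21.0 and 21.2 TPM in *hippo (RNAi)* libraries, against 10.2, 7.92 and 9.71 TPM in *gfp (RNAi)* libraries. The groups were apart, with a log2 fold change of 1.15 (SE 0.10, adjusted p = 3.82e-07), and a second transcript of the code rose too, by 1.34 on the log2 scale (adjusted p = 6.22e-04). That call was lost without libraries 266 to 269, at 1.22 (adjusted p = 0.0700, the highest over its 14 alternatives, of which the lowest was 1.96e-04). *CDC42*, a small GTPase of the actin skeleton and of cell polarity, had 269, 259 and 258 TPM in *hippo (RNAi)* libraries and 198, 211 and 210 TPM in *gfp (RNAi)* libraries. This smaller difference was still beyond the spread between pools, with a log2 fold change of 0.34 (SE 0.03, adjusted p = 3.15e-06).

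Lysosomal acid lipase (*LAL*), which breaks down cholesteryl esters and triglycerides in lysosomes, was the named gene with the largest change. It had 16.6, 19.6 and 20.2 TPM in *hippo (RNAi)* libraries, against 54.8, 58.0 and 58.7 TPM in *gfp (RNAi)* libraries. Its log2 fold change of -1.56 (SE 0.09, adjusted p = 9.48e-09) was the 15th largest of the 2453 falls. Caprin 1 (*CAPR1*), an RNA-binding protein of cytoplasmic granules, differed little in level, with 298, 293 and 298 TPM in *hippo (RNAi)* libraries and 327, 316 and 329 TPM in *gfp (RNAi)* libraries. Because its pools were so even, the difference passed the test at a log2 fold change of -0.13 (SE 0.02, adjusted p = 0.00103). The muscarinic receptor (*mAChR*), a receptor for acetylcholine, was near the lower limit of what was tested, at 2.39, 2.09 and 2.30 TPM in *hippo (RNAi)* libraries and 2.99, 2.70 and 3.01 TPM in *gfp (RNAi)* libraries. Its log2 fold change was -0.26 (SE 0.08, adjusted p = 0.0381). This call was lost in 8 of 15 alternatives that keep the threshold, among them leaving out any one of 261O, 263O, 268O, 264O and 269O. Without single libraries the adjusted p ran from 0.0409 to 0.134. At an adjusted p below 0.01 and at 1.5-fold the call was lost too.

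Of the genes of cytokinesis and membrane scission, 2 of 3 were higher, beside 13% of all transcripts tested. The dynamin 1-like gene (*DYN1*), of a family of large GTPases that pinch membranes, had 137, 129 and 130 TPM in *hippo (RNAi)* libraries, against 51.2, 49.3 and 53.8 TPM in *gfp (RNAi)* libraries. Its log2 fold change of 1.34 (SE 0.08, adjusted p = 1.04e-08) was the largest rise of the 20 genes and the 89th of all rises. Septin 4 (*Sept4*), a filament-forming GTPase of a family that gathers at the cleavage furrow, had 68.8, 67.5 and 67.2 TPM in *hippo (RNAi)* libraries, against 41.3, 40.1 and 38.5 TPM in *gfp (RNAi)* libraries. All *hippo (RNAi)* libraries were above all controls, and the log2 fold change was 0.75 (SE 0.04, adjusted p = 8.83e-09). Centriolin (*CNTRL*), a centriole protein needed for the final cut between daughter cells in mammals, had 9.85, 9.78 and 7.63 TPM in *hippo (RNAi)* libraries and 9.59, 8.93 and 9.47 TPM in *gfp (RNAi)* libraries. These overlapped, and the log2 fold change of -0.04 (95% interval -0.20 to 0.12, adjusted p = 0.768) was 0.066 without library 269O, whose value was the lowest. A second transcript of the code had 6.54, 6.19 and 6.17 TPM in *hippo (RNAi)* libraries and 6.63, 6.59 and 6.86 TPM in *gfp (RNAi)* libraries. Its groups were apart but close, and the log2 fold change of -0.08 did not pass the test (adjusted p = 0.586).

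Of the genes of microtubules and cilia, 1 of 3 was higher, beside 13% of all transcripts tested, and the others did not pass the test. *KIF2A*, a kinesin that takes microtubules apart at their ends, had 38.1, 36.8 and 36.3 TPM in *hippo (RNAi)* libraries and 30.0, 31.1 and 31.3 TPM in *gfp (RNAi)* libraries. The groups were apart at a log2 fold change of 0.26 (SE 0.04, adjusted p = 7.68e-05). Rootletin (*CROCC*), the main protein of the ciliary rootlet, had 106, 115 and 99.6 TPM in *hippo (RNAi)* libraries and 117, 110 and 121 TPM in *gfp (RNAi)* libraries. These values overlapped, with a log2 fold change of -0.12 (95% interval -0.23 to -0.01, adjusted p = 0.119). Without library 264O it was -0.17 and passed the test (adjusted p = 0.0267, the lowest over the 16 alternatives, of which the highest was 0.940).

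Alpha tubulin 3A (*TubA3A*), a subunit of microtubules, had 9.95, 9.86 and 10.3 TPM in *hippo (RNAi)* libraries and 12.0, 11.9 and 10.9 TPM in *gfp (RNAi)* libraries in its most abundant transcript. The groups did not overlap, and the log2 fold change of -0.19 (95% interval -0.34 to -0.04, adjusted p = 0.0722) missed the threshold. This transcript was called with a filter of 10 TPM (adjusted p = 0.0399) and with median-ratio scaling (0.0452). In 13 of 16 alternatives it was not called. A second transcript of the code was lower, with 1.54, 1.96 and 2.50 TPM in *hippo (RNAi)* libraries and 3.80, 3.43 and 3.78 TPM in *gfp (RNAi)* libraries, a log2 fold change of -0.65 (SE 0.16, adjusted p = 0.00849). Without libraries 266 to 269 it was -0.66 and the call was lost (adjusted p = 0.115, the highest over its 14 alternatives, of which the lowest was 0.00485). Summed over the code, *TubA3A* passed the test at -0.32 (adjusted p = 0.00586). Only this fit used sums. The highest adjusted p over the 16 alternatives, 0.199, belongs to the most abundant transcript and not to the sum.

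The genes of mitosis changed little and not in one direction, with 1 of 4 higher, 1 lower and 2 not passing the test. Of all transcripts tested, 13% were higher and 8.54% lower. The groups did not overlap in any of the 4, beside 36.7% of all transcripts tested. *BUB1*, a kinase of the checkpoint that holds anaphase until chromosomes are attached, had 15.1, 15.1 and 15.0 TPM in *hippo (RNAi)* libraries and 12.5, 14.0 and 11.8 TPM in *gfp (RNAi)* libraries. It rose by 0.23 on the log2 scale (SE 0.05, adjusted p = 0.00499). The aurora kinase (*AURK1*), of a family that acts on centrosomes, kinetochores and the spindle, had 4.57, 4.48 and 4.27 TPM in *hippo (RNAi)* libraries and 6.35, 5.86 and 5.42 TPM in *gfp (RNAi)* libraries. It was lower, at a log2 fold change of -0.34 (SE 0.08, adjusted p = 0.00490). Both calls were lost without libraries 266 to 269, at log2 fold changes of 0.23 for *BUB1* and -0.33 for *AURK1*, and that of *BUB1* also in a fit of the 4-week libraries alone, where it was 0.23. The fit of the 4-week libraries alone keeps the group means, so its fold could not differ. The fit without libraries 266 to 269 keeps the same controls and a *hippo (RNAi)* library already used. Neither fold is therefore a separate check on the calls. In the 4-week libraries alone the adjusted p was 0.0570 for *BUB1* and 0.0298 for *AURK1*. Without single libraries it ran from 5.00e-04 to 0.0308 for *BUB1* and from 0.00523 to 0.0297 for *AURK1*.

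Polo-like kinase 1 (*PLK1*), which drives entry into mitosis and cytokinesis, had 4.76, 4.77 and 4.22 TPM in *hippo (RNAi)* libraries and 5.19, 5.19 and 5.14 TPM in *gfp (RNAi)* libraries. The log2 fold change of -0.15 (95% interval -0.29 to -0.01, adjusted p = 0.141) did not pass the test, and that of its second transcript was 0.03 (adjusted p = 0.918). *ANAPC1*, the largest subunit of the ubiquitin ligase that starts anaphase, had 8.31, 8.74 and 8.84 TPM in *hippo (RNAi)* libraries and 9.14, 9.66 and 9.88 TPM in *gfp (RNAi)* libraries. Here too the difference of -0.13 on the log2 scale (95% interval -0.24 to -0.02, adjusted p = 0.0866) missed the threshold. These genes lie in the classes of 3 to 10 and 10 to 30 TPM, where 13.1% and 33.2% of all transcripts were called.

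Of the genes of polarity and the adaptors of Hippo, 2 of 3 were higher, beside 13% of all transcripts tested. Afadin (*AFDN*), an actin-binding protein of cell junctions, had 14.1, 14.6 and 14.4 TPM in *hippo (RNAi)* libraries and 10.9 TPM in each of the *gfp (RNAi)* libraries, a log2 fold change of 0.37 (SE 0.04, adjusted p = 7.12e-06). Discs large (*DLG*), a membrane scaffold known as a tumour suppressor in *Drosophila*, had 17.6, 15.3 and 15.3 TPM in *hippo (RNAi)* libraries and 14.9, 13.0 and 13.0 TPM in *gfp (RNAi)* libraries. These groups were apart but close, and the log2 fold change was 0.23 (SE 0.06, adjusted p = 0.00891). Without library 268O, the highest, it was 0.16 and the call was lost (adjusted p = 0.0501, within 0.00174 to 0.264 over the 16 alternatives). It was also lost without libraries 266 to 269 and in a fit of the 4-week libraries alone.

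*RASSF1*, which binds the Hippo kinases in mammals, was measured in 2 transcripts of similar level. The more abundant had 31.5, 28.5 and 31.8 TPM in *hippo (RNAi)* libraries and 36.1, 36.0 and 34.3 TPM in *gfp (RNAi)* libraries, with a log2 fold change of -0.21 (SE 0.07, adjusted p = 0.0506), just outside the threshold. It was called with a filter of 10 TPM (adjusted p = 0.0239), median-ratio scaling (0.0402), array weights (0.0206) and the 4-week libraries alone (0.0314). In 11 of 16 alternatives it was not called. The other had 21.2, 21.7 and 21.5 TPM in *hippo (RNAi)* libraries and 27.0, 24.2 and 29.1 TPM in *gfp (RNAi)* libraries, and it was lower at -0.30 (SE 0.08, adjusted p = 0.0154), a call lost without library 263O and without libraries 266 to 269 (adjusted p from 0.00634 to 0.157 over its 15 alternatives). All *hippo (RNAi)* libraries were below all controls in both. Summed over the code the level was 52.1 ± 1.60 TPM in *hippo (RNAi)* pools and 62.2 ± 1.76 TPM in control pools (SD, n = 3 each), and the log2 fold change of -0.25 passed the test (adjusted p = 2.01e-05). Only this fit used sums. The highest adjusted p over the 16 alternatives, 0.190, belongs to the more abundant transcript and not to the sum.

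**Figure D4:**
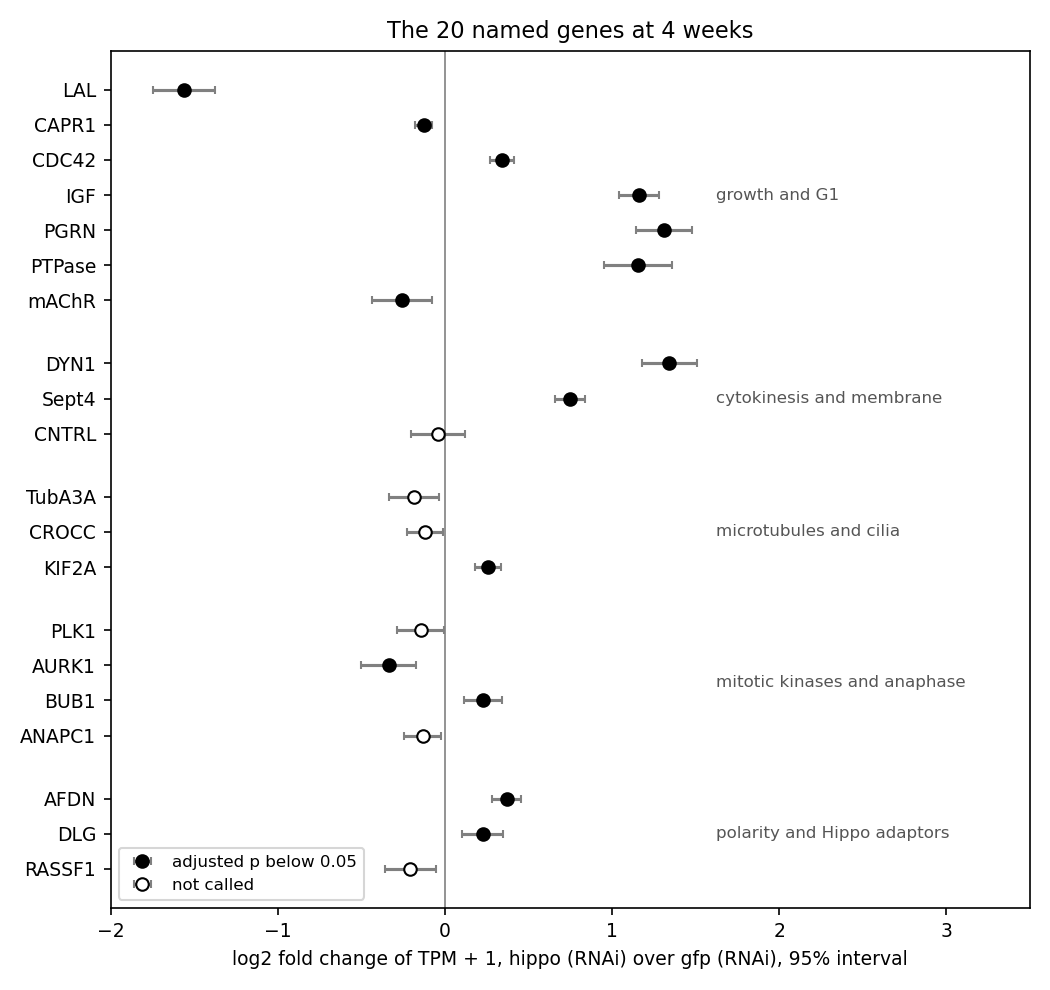
Log2 fold change of TPM + 1 at 4 weeks, *hippo (RNAi)* over *gfp (RNAi)*, with the 95% interval from limma for the most abundant transcript of each of the 20 named genes, in the order of their roles. Filled points passed an adjusted p of 0.05 and open points did not. The points run from -1.56 in *LAL* to 1.34 in *DYN1*, and those of mitotic kinases and anaphase lie between -0.34 and 0.23.

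The 1-week and 3-week libraries are separate pools with their own controls, and they show when the differences seen at 4 weeks were present. Among the 3742 transcripts higher at 4 weeks, the median log2 fold change was 0.07 at 1 week, 0.24 at 3 weeks and 0.32 at 4 weeks. At 1 week 80.4% of them were above their controls, beside 55.6% of all transcripts tested, and at 3 weeks 97.4%, beside 50.7%. Among the 2453 lower transcripts the medians were -0.04, -0.17 and -0.30. Of these, 71.4% were below their controls at 1 week, beside 44.4% of all transcripts, and 94.5% at 3 weeks, beside 49.3%. Both sets were selected at 4 weeks, which enlarges their medians at that week, so the steps from 3 to 4 weeks carry no test.

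The effect at 4 weeks differed from that at 1 week in 2794 transcripts (9.72%), with 1797 of these differences positive and 997 negative. They included 1732 (46.3%) of the transcripts higher at 4 weeks and 886 (36.1%) of the lower ones. In each of these the difference ran in the direction of the change at 4 weeks, which the selection at 4 weeks favours. From 3 to 4 weeks the test found 3 transcripts (0.0104%). One was dd_Smed_v6_615_0_1, whose mean in *hippo (RNAi)* animals was 63.6, 165 and 331 TPM at 1, 3 and 4 weeks, while that of the controls was 41.4, 29.8 and 22.7 TPM, a difference of 1.37 between its effects at 4 and 3 weeks on the log2 scale (SE 0.17, adjusted p = 0.0214). The second, without a name in the sources used here and chosen after its values were seen, averaged 54.8 ± 1.56 TPM in *hippo (RNAi)* pools and 14.4 ± 0.731 TPM in control pools at 4 weeks (SD, n = 3 each), with a difference of 0.60 between its effects (adjusted p = 0.0454). The last was listed at 0 in all 6 libraries at 4 weeks. It averaged 4.49 TPM at 1 week and 3.54 TPM at 3 weeks in *hippo (RNAi)* pools, and 0 TPM in the controls of both weeks. It passed the minimum of 1 TPM only through those *hippo (RNAi)* pools, so its difference follows from the filter and is not a test result.

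This count rests on single libraries. It was 0 when any one of 257O, 258O, 259O, 267O, 268O or 269O was left out, and 1 without 261O, 264O or 266O. That few transcripts passed does not show that the effects at 3 and 4 weeks were equal, since the difference of 2 fold changes has a larger error than either.

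Among the 20 named genes, 9 had an effect at 4 weeks that differed from that at 1 week, beside 9.72% of all transcripts tested. In all 9 the effect at 4 weeks was the larger. *IGF* stood at 0.26 at 1 week, 1.06 at 3 weeks and 1.16 at 4 weeks, and *PGRN* at 0.44, 1.27 and 1.31 on the log2 scale. *LAL* stood at -0.50, -1.33 and -1.56. Between 4 and 3 weeks none of the 20 genes passed the limma test, with differences from -0.23 to 0.14, and 1 of them, *PLK1*, had an unadjusted p below 0.05. The direction at 4 weeks was also that at 3 weeks in 19 of the 20 genes, *PLK1* being the exception with 0.07 at 3 weeks, and that at 1 week in 17. These values are of the most abundant transcript of each code. The second transcript of *PLK1* went the other way, from -0.42 at 3 weeks to 0.03 at 4 weeks. Its difference of 0.44 did not pass the limma test either (adjusted p = 0.663), so no turn is shown for the gene. The share of all transcripts that kept direction was not computed. The 20 genes were chosen on these samples, so these counts are not independent evidence.

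**Figure D5:**
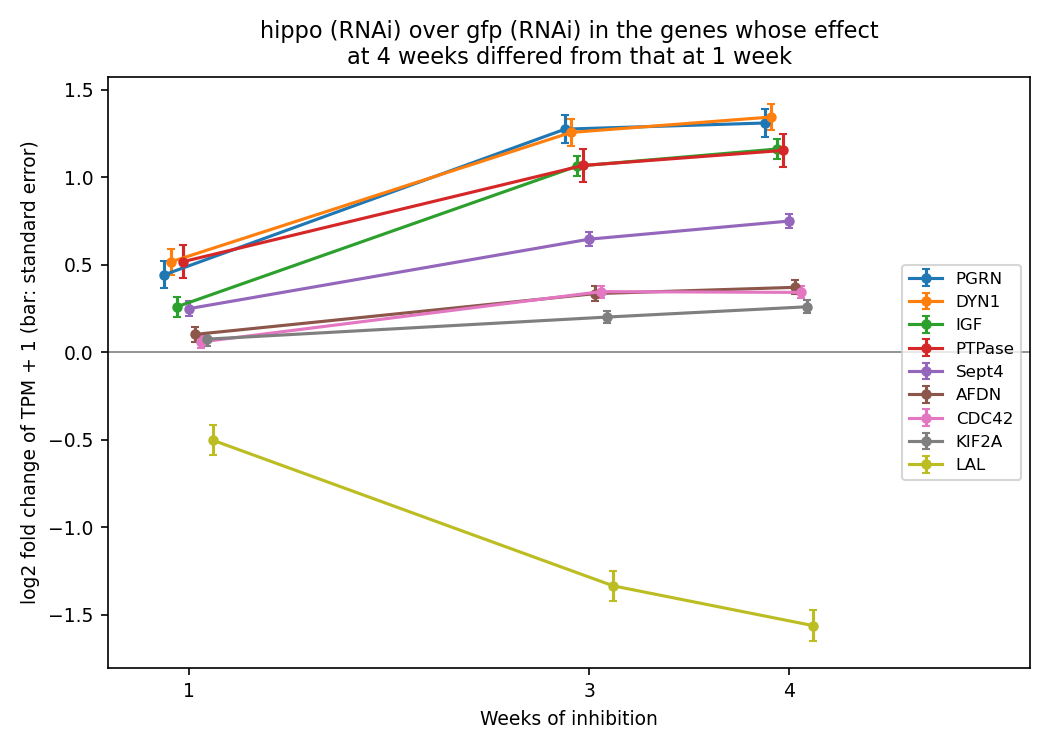
Log2 fold change of TPM + 1, *hippo (RNAi)* over *gfp (RNAi)*, after 1, 3 and 4 weeks for the 9 named genes whose effect at 4 weeks differed from that at 1 week, with the standard error from limma as bars. Points of a week are shifted sideways to be seen, and lines join the means of separate animals. The step from 1 to 3 weeks is larger than that from 3 to 4 weeks, as in *LAL*, which stands at -0.50, -1.33 and -1.56. The first step spans a longer time, and the genes were picked for a difference between 1 and 4 weeks, so the steps carry no test.

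Since all animals were starved, the effect at 4 weeks was also set beside the change of *gfp (RNAi)* animals from 1 to 3 weeks, which uses none of the 4-week libraries. Across the 28735 transcripts Pearson's r was -0.08, and across the 10677 with at least 10 TPM it was -0.21. The points are transcripts of the same animals and share abundance and length, so these values describe the libraries and carry no test.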

How the data were processed

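Abundances were estimated by the authors with kallisto 0.43.0 on the dd_Smed_v6 assembly and deposited as TPM, 1 value per transcript and library. For differential expression the authors name sleuth and DESeq2, and no model is given in the sources used here. Reads per library are not given either. Each column was matched to a sample by its title, and groups were taken from the treatment label. The labels carry no replicate numbers.

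The deposited TPM were put on the log2(TPM + 1) scale, transcripts whose mean over all libraries was below 1 TPM were left out, and limma 3.58.1 in R 4.3.3 was fitted to the rest (1 mean for each of 6 groups of 3 libraries, a trend in the variance, two-sided contrasts, Benjamini-Hochberg adjustment over all transcripts tested). The contrasts were *hippo (RNAi)* against *gfp (RNAi)* at 4 weeks and the difference of this effect from those at 1 and 3 weeks. No exact permutation test was made, since 3 libraries against 3 cannot give a p below 0.1. The code was tested on simulated data, where the share of false calls was above the nominal rate and changes of scarce transcripts were often missed. The requirement on recovered changes, not met over all transcripts, was then restricted to those of at least 10 TPM, so an adjusted p near 0.05 should be read with caution. Figures were drawn with matplotlib 3.10.9.

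The genes named are the 20 codes that the study pairs with gene names, and, by size of log2 fold change, the top 2 rises and the top 2 falls among calls whose groups did not overlap. Abundance classes and transcripts described without an identifier were chosen after the values were seen. Members, lists and tests were chosen with earlier results of these data known. No sequence was used here.

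The alternatives were other pseudocounts (0.5 and 0.1 TPM), no filter or one of 10 TPM, median-ratio scaling, no trend, array weights, TPM summed per code, stricter thresholds, the 4-week libraries alone, and leaving out single libraries or the *hippo (RNAi)* libraries 266 to 269. Counts of alternatives and ranges of adjusted p given for a transcript leave out the stricter thresholds.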

Additional observations from a re-analysis of the deposited data

Results flagged for a closer look

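The test of the difference between time points singled out 13 named transcripts, since their effect of *hippo (RNAi)* over *gfp (RNAi)* at 4 weeks was not that at another week (limma, adjusted over all transcripts). For 4 weeks minus 1 week on the log2 scale, the difference was -1.06 in *LAL*, 0.28 in *CDC42*, 0.90 in *IGF*, 0.87 in *PGRN* and 0.64 in *PTPase*. It was 0.83 in *DYN1*, 0.50 in *Sept4*, 0.19 in *KIF2A* and 0.27 in *AFDN*. The transcripts with the largest rises had 3.18 (dd_Smed_v6_615_0_1) and 3.16 (dd_Smed_v6_1188_0_1), and those with the largest falls had -4.61 (dd_Smed_v6_1062_0_5) and -4.31 (dd_Smed_v6_1665_0_5). For 4 weeks minus 3 weeks, dd_Smed_v6_615_0_1 had 1.37. Both falls were in transcripts that averaged 0 TPM in controls at 1 week. In controls at 4 weeks they averaged 20.3 TPM (dd_Smed_v6_1062_0_5) and 10.1 TPM (dd_Smed_v6_1665_0_5), so these differences rest on the controls as well. Transcript dd_Smed_v6_1665_0_5 passed the minimum of 1 TPM only through the 4-week controls. Its difference therefore had to appear, and its place among the 13 is not a test result.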

How the results depend on the processing

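The count at 4 weeks (6195) was 1125 at a change of at least 1.5-fold, 3076 without *hippo (RNAi)* libraries 266 to 269, and 4173 to 6748 under the other settings, with 5040 to 5529 when single libraries were left out. The count for 4 weeks minus 1 week (2794) was 1431 at an adjusted p below 0.01, 637 at 1.5-fold, 1219 without libraries 266 to 269, and 2092 to 2605 without single libraries. That for 4 weeks minus 3 weeks (3) was 1 with a pseudocount of 0.1 TPM, 0 at an adjusted p below 0.01, 8 without libraries 266 to 269, and 0 to 3 without single libraries. The causes were not tested beyond what stricter thresholds and fewer libraries imply. Of 29 named transcripts, 11 kept direction and call under every setting, stricter thresholds included. Directions turned in the more abundant transcript of *CNTRL*, at 0.062 without libraries 266 to 269 and 0.066 without 269O (-0.098 to 0.066 without single libraries). They also turned in the second transcript of *PLK1*, at -0.0066 without 263O and -0.029 without 264O (-0.029 to 0.082). Without libraries 266 to 269, 7 named calls were lost, those of *AURK1*, *BUB1*, *DLG*, *mAChR*, the second transcripts of *PTPase* and *TubA3A* and the less abundant one of *RASSF1*, and those of *BUB1*, *DLG* and *mAChR* were lost from the 4-week libraries alone. *ANAPC1* and the most abundant transcripts of *TubA3A* and *RASSF1* gained a call with median-ratio scaling. Those of *TubA3A* and *RASSF1* also gained it with a filter of 10 TPM. That of *RASSF1* gained it with array weights and from the 4-week libraries alone as well, and *CROCC* without 264O. No paired analysis was possible because the labels carry no replicate numbers. Depth is unknown, and low transcripts had the larger errors.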
